A study of Mus musculus with 16 samples.

Results

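The genes described here were 10 genes of fatty acid oxidation in skeletal muscle: the receptors Ppara and Ppard, and 8 genes known as targets of peroxisome proliferator-activated receptors (PPARs), namely Cpt1b, Cpt2, Pdk4, Ucp3, Acadm, Hadha, Angptl4, and Cd36. They were chosen by name, and all 10 were found among the 23235 gene names of the mRNA data, where they had 58 transcripts. Skeletal muscle RNA of 16 male C57BL/6J mice (C57BL/6 in the strain label) was sequenced, in 4 groups of 4. The control group had a normal diet, and the HFD group had a high-fat diet (D12492J, 60% fat) for 8 weeks from 6 weeks of age. The HFD + RSV and HFD + MET groups had the same diet and were then given resveratrol or metformin for 6 weeks. The labels describe no genetic change. Each mouse gave 1 library, and mice are numbered here within a group.

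PPARs are nuclear receptors that bind fatty acids and their derivatives. As heterodimers with retinoid X receptors, they bind direct repeats of the hexamer AGGTCA with 1 base between them and raise transcription of genes for fatty acid uptake, transport into mitochondria, and beta-oxidation. In skeletal muscle, PPAR delta is usually described as the main form, and fasting, exercise, and lipid supply are known to raise the targets. A high-fat diet therefore poses the question of whether these genes differ between the groups, and resveratrol and metformin pose the question of whether any such difference is altered.

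The total count per mouse over the mRNA and lncRNA data ranged from 20281801 to 34021101, and all 10 genes passed the filter on low counts. Muscle markers such as Ttn were abundant in every mouse. The summed level of the 4 retina markers that had values, of 6 chosen, checked because the extraction text of the labels names retinas, was at most 1.33 CPM (counts scaled by library size). All 4 HFD mice carried a leading number in their mouse label that no other mouse carried, so what that number stands for and the HFD group cannot be told apart. Of 15364 genes tested, 374 differed between the HFD and control groups at an adjusted P under 0.05, with 203 upregulated and 171 downregulated. On deposited FPKM with limma the split was 75 upregulated and 106 downregulated. For HFD + RSV against HFD, edgeR called 0 genes, with 725 at an unadjusted P under 0.05, and DESeq2 called 8. For HFD + MET against HFD, edgeR called 2.

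None of the 10 genes differed between any 2 groups at an adjusted P under 0.05 in edgeR's quasi-likelihood test of all 16 mice. For HFD against control, 2.43% of all genes passed that threshold, and in every other comparison at most 0.013% did. At an unadjusted P under 0.05, 3 of the 10 genes passed, namely Ppara, Cd36, and Ppard, beside 24.2% of all genes. The log2FC was below 0 for 9 of the 10 genes, beside 52.4% of all genes, and its median was −0.41 for the 10 genes and −0.018 for all genes. The groups overlapped for all 10 genes, whereas 18.3% of all genes had groups that did not overlap. For HFD against control, DESeq2 called 1 of the 10 genes, Ppara, beside 1544 of all 15364 genes. A fit of the 12 mice without the metformin group called 2, Ppara and Cd36, beside 1616 of all 15097 genes.

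**Figure D1:**
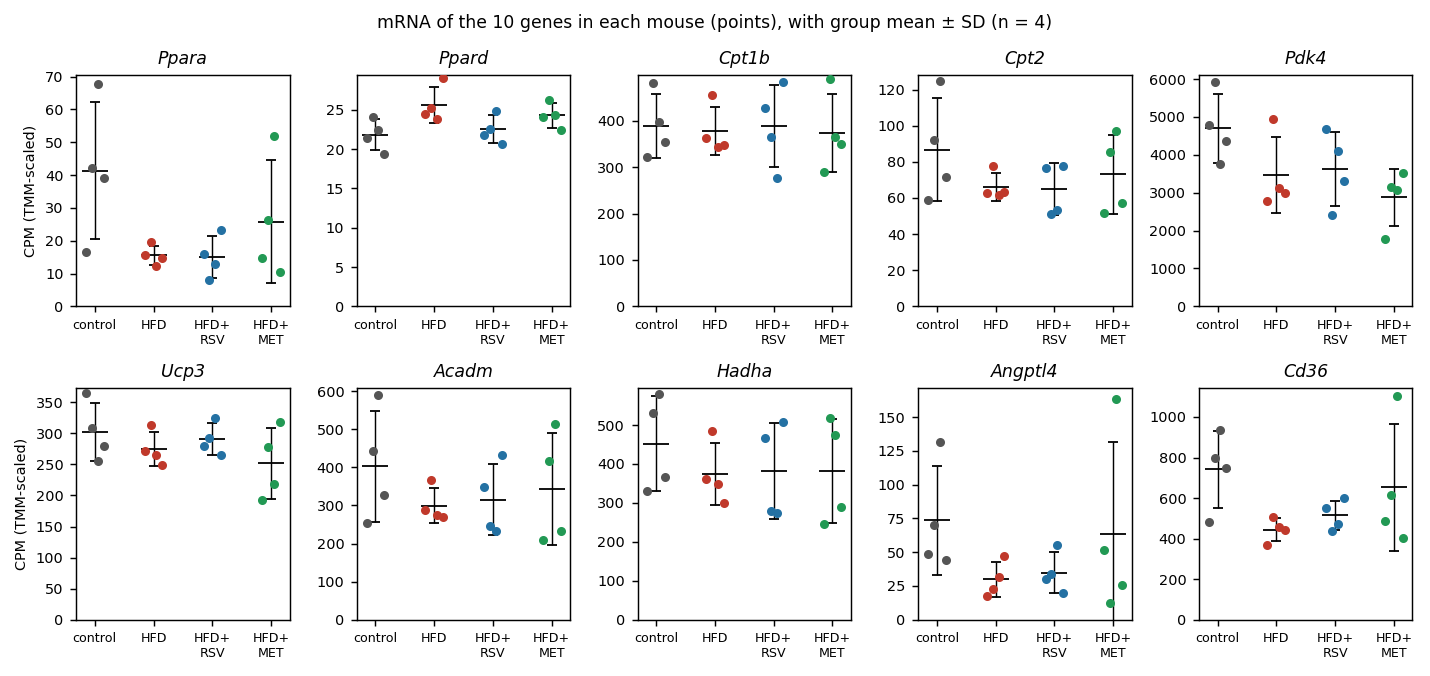
CPM of the 10 genes (y axis, linear from 0) in each of 16 mice, with points for mice, long ticks for group means, and bars for ± SD (n = 4). Ppara, Angptl4, and Cd36 were spread most widely in the control and HFD + MET groups, and the lower bar of Angptl4 in the HFD + MET group runs below 0, where the axis ends.

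Compared per transcript length as FPKM, Pdk4 was the most abundant of the 10 genes, with a mean of 927.7 ± 276.0 (SD, n = 16 mice), and it exceeded Cd36 in 16 of 16 mice. Pdk4 encodes a kinase that inactivates pyruvate dehydrogenase and so spares glucose. Cd36 (185.5 ± 79.7), Acadm (162.4 ± 61.9), Cpt1b (121.3 ± 22.2), Hadha (114.1 ± 35.3), and Ucp3 (101.2 ± 13.0) followed, each within the spread of its neighbour, although Acadm exceeded Cpt1b in 15 of 16 mice. Cpt2 (32.1 ± 11.6 FPKM) was lower than Ucp3 in 16 of 16 mice. Angptl4 came next with 25.5 ± 23.9 FPKM. The receptors were lowest, with 9.67 ± 7.77 FPKM for Ppara and 7.96 ± 0.929 FPKM for Ppard, and Ppara exceeded Ppard in 6 of 16 mice. Between mice, Ppard varied least, with a highest level 1.49 times its lowest in CPM, and Angptl4 varied most, 13.5-fold.

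Ppara (ENSMUSG00000022383, GRCm38 chr15:85734983-85802819) encodes PPAR alpha, the form best known from liver, heart, and brown fat. Its level was 16.6, 42.1, 67.6, and 39.0 CPM in the 4 control mice and 15.7, 19.5, 12.3, and 14.6 CPM in the 4 HFD mice. Control 1 lay inside the range of the HFD mice, and the other 3 control mice lay above it. The mean was 41.3 ± 20.9 CPM in the control group and 15.5 ± 2.99 CPM in the HFD group, a log2FC of −1.41 with a standard error (SE) of 0.49 (adjusted P = 0.105). The level was 16.1, 8.06, 12.8, and 23.4 CPM in the HFD + RSV mice, with a log2FC of −1.46 (SE 0.49, adjusted P = 0.203) against the control group. The HFD + MET mice had 14.6, 26.2, 52.0, and 10.6 CPM, and HFD + MET 2 and HFD + MET 3 stood above every HFD and HFD + RSV mouse. The adjusted P for HFD against control was 0.0316 with DESeq2, 0.0437 without the metformin group, and 0.0435 without HFD + MET 3 alone, and over all alternatives it ranged from 0.0316 to 0.295.

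Ppara had 6 deposited transcripts, and 3 of them held nearly all of its counts. According to the GENCODE M21 annotation of GRCm38, ENSMUST00000057979, ENSMUST00000109422, and ENSMUST00000109423 lie on the plus strand with 8 exons each and share 1 coding sequence of 1404 bases at chr15:85777560-85801255. They differ in their first exon, which is noncoding and measures 42, 321, and 83 bases in that order, and in the length of the sequence after the stop codon, which measures 493, 1564, and 908 bases. Only 42 bases of ENSMUST00000057979 and 83 bases of ENSMUST00000109423 were in neither of the other 2, so most fragments were divided between transcripts by the authors' counting and the transcript counts are estimates.

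ENSMUST00000057979 (chr15:85736131-85801748) held 138, 776, 1011, and 426 counts in the control mice, or 46.8%, 59.2%, 58.4%, and 56.8% of the Ppara counts. In the HFD mice it held 0, 1, 1, and 1 counts, with a highest share of 0.358%. The shares did not overlap between these groups (55.3% ± 5.78 against 0.222% ± 0.16, SD, n = 4 each). Summed over mice, 2351 counts stood against 3, a 755.6-fold higher level in the control group with an exact 95% interval of 258.2 to 3666.8. That interval treats the estimated counts as counted fragments. It covers neither the division of fragments between transcripts nor the spread between mice, so the size of the fold is uncertain. Among the treated mice, HFD + RSV 3 had 152 counts (52.8%) and HFD + MET 3 had 724 counts (58.8%), whereas the other 6 treated mice had 0 or 1 count. The transcript was thus near 0 in 10 mice and held about as large a share in HFD + RSV 3 and HFD + MET 3 as in the control mice.

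ENSMUST00000109423 (chr15:85735564-85802163) had the opposite distribution. It held 20, 27, 34, and 16 counts in the control mice, or 6.78%, 2.06%, 1.97%, and 2.13% of the Ppara counts, and 67.2%, 71.9%, 71.0%, and 71.4% in the HFD mice. HFD + RSV 3 (4.86%) and HFD + MET 3 (3.01%) were again close to the control mice, and the other 6 treated mice had 59.6% to 69.9%. In CPM, it was 0.824 to 1.31 in the control mice and 8.84 to 14.2 in the HFD mice, with a log2FC of 3.41. ENSMUST00000109422 (chr15:85735776-85802819) was present in every mouse, with 37.4% to 43.4% of Ppara counts in the control mice and 24.7% to 30.0% in the HFD mice.

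In the test across 44573 transcripts, none of the 3 passed for HFD against control (adjusted P = 0.2 for ENSMUST00000057979, 0.134 for ENSMUST00000109423, and 0.189 for ENSMUST00000109422), beside 7 transcripts called in all, or 0.0157%. In a fit of the 8 mice of these groups, ENSMUST00000057979 (adjusted P = 0.0145) and ENSMUST00000109423 (adjusted P = 0.00718) passed. That fit called 28 higher and 23 lower of 39396 transcripts in all. DESeq2 called all 3 (adjusted P = 0.000515, 0.000363, and 0.0193 for ENSMUST00000057979, ENSMUST00000109423, and ENSMUST00000109422), beside 801 higher and 639 lower of all 44573 transcripts. Exact two-sided permutation tests of the shares gave P = 0.0286 for each of the 3 in HFD against control, the smallest value that 4 mice against 4 allow, and 0.0934 after adjustment over the 18 tests of 3 transcripts in 6 comparisons. These tests of shares were added after the values were seen.

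**Figure D2:**
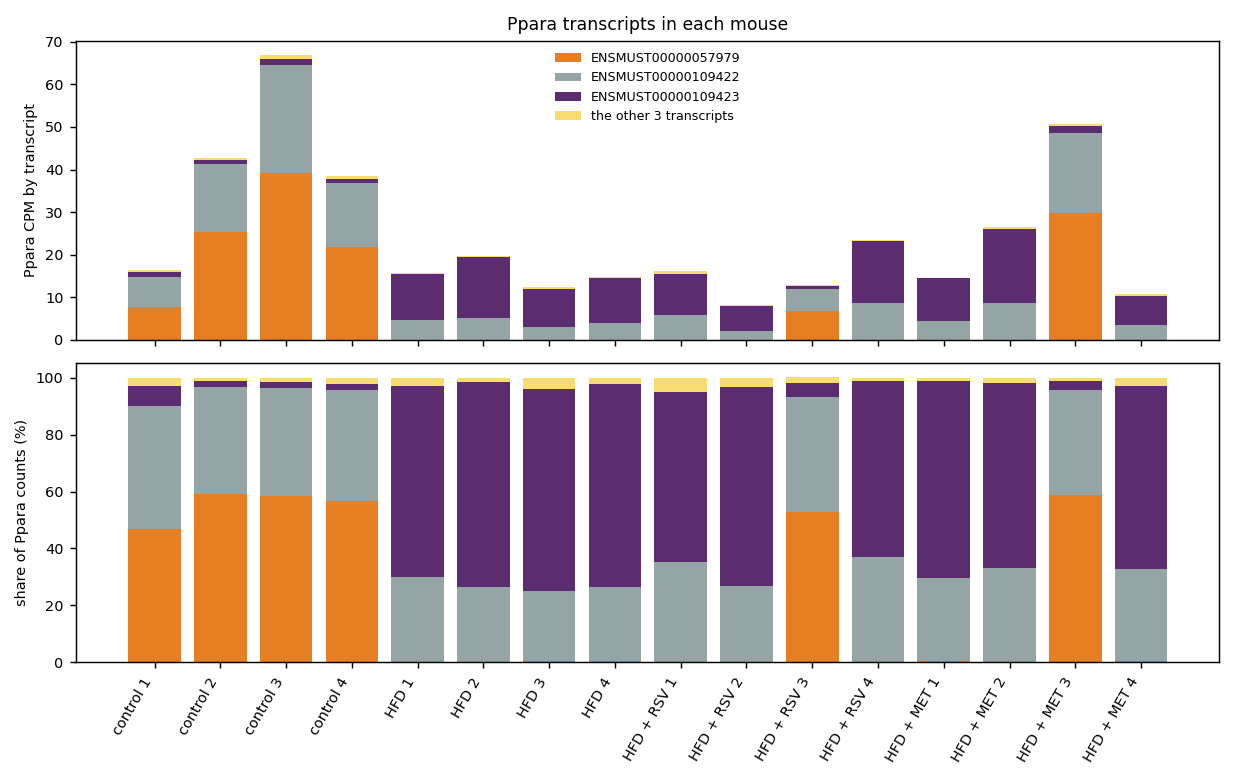
Ppara in each of 16 mice, split by transcript, as CPM (upper y axis) and as percent of the Ppara counts (lower y axis), with mice along the x axis. The 4 control mice, HFD + RSV 3, and HFD + MET 3 had 46.8% to 59.2% of their counts in ENSMUST00000057979, and the other 10 mice had at most 0.377%.

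Markers of brown adipocytes summed higher in every mouse that had ENSMUST00000057979 than in any mouse in which it was near 0. Their summed level (Ucp1, Cidea, Elovl3, Dio2, and Otop1, with Ucp1 highest) was 62.0, 129.8, 806.4, and 35.1 CPM in the control mice, 203.2 CPM in HFD + MET 3, and 30.1 CPM in HFD + RSV 3. It was 4.42 to 7.07 CPM in the HFD mice and 3.6 to 12.9 CPM in the other 6 treated mice, and no marker was at 0 throughout a group. Among the mice with ENSMUST00000057979, the sum ranged from 30.1 to 806.4 CPM, whereas the share of that transcript stayed at 46.8% to 59.2%. In those mice ENSMUST00000109423 had 0.629 to 1.52 CPM, and in all others 5.69 to 17.2 CPM. For HFD against control, 2 of the 5 brown markers were downregulated at an adjusted P under 0.05. The summed level of 7 white adipocyte markers, with Fabp4 highest, was 1042.6 to 4715.9 CPM in the control mice and 207.8 to 1033.9 CPM in the HFD mice, with 0 of 7 called by edgeR and 3 at an unadjusted P under 0.05. It was 4380.8 CPM in HFD + MET 3 and 1209.0 CPM in HFD + RSV 3. In bulk tissue, fewer cells of a type and less RNA per cell cannot be told apart, and the part of adipocytes in the Ppara values was not tested.

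**Figure D3:**
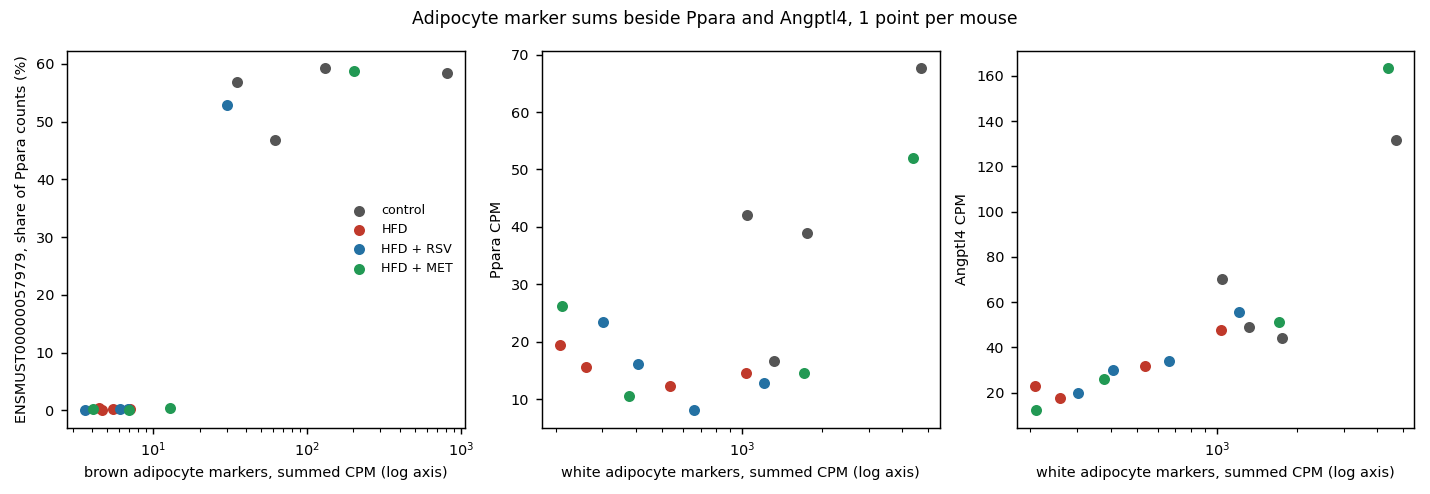
Summed CPM of brown or white adipocyte markers (x axes, log scale) against the share of ENSMUST00000057979 in the Ppara counts (percent), the CPM of Ppara, and the CPM of Angptl4 (y axes), with 1 point per mouse. The 6 mice with a brown marker sum of 30.1 CPM or more were the 6 mice with ENSMUST00000057979, and control 3 and HFD + MET 3 were highest in white markers, Ppara, and Angptl4.

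Ppard (ENSMUSG00000002250, chr17:28232754-28301469) encodes PPAR delta. Its level was 21.4, 24.1, 22.4, and 19.4 CPM in the control mice and 24.5, 25.2, 23.8, and 29.0 CPM in the HFD mice. The log2FC was 0.23 (SE 0.09, adjusted P = 0.14), and 3 of 4 HFD mice lay above every control mouse. On deposited FPKM, which divide by the total count without the scaling between mice, the log2FC was −0.06, on a scale where the median of all genes was −0.11, so its direction depended on the scale. The HFD + RSV mice had 20.7 to 24.9 CPM, 3 of them below every HFD mouse (log2FC −0.19, SE 0.09, adjusted P = 1.0). The HFD + MET mice had 22.4 to 26.3 CPM.

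Cd36 (ENSMUSG00000002944, chr5:17781690-17888801) encodes a fatty acid translocase of the plasma membrane. The control mice had 482.3, 800.0, 936.0, and 746.5 CPM and the HFD mice 368.3, 507.7, 456.9, and 442.8 CPM. As for Ppara, control 1 was the only control mouse within the HFD range. The log2FC was −0.74 (SE 0.27, adjusted P = 0.12). The adjusted P was 0.0301 without the metformin group, 0.0284 without HFD + MET 3 alone, and 0.0284 to 0.303 over all alternatives. The HFD + RSV mice had 437.4 to 598.5 CPM, and the HFD + MET mice had 402.1 to 616.4 CPM apart from HFD + MET 3 with 1105.4 CPM. Its 6 transcripts kept similar shares in the 4 groups, the most abundant, ENSMUST00000197890, holding 32.9% ± 5.49 in the control group and 36.8% ± 4.93 in the HFD group.

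Angptl4 (ENSMUSG00000002289, chr17:33773750-33781575) encodes a secreted inhibitor of lipoprotein lipase and is a sensitive PPAR target. It had 48.8, 70.2, 131.5, and 44.0 CPM in the control mice and 17.7, 23.0, 31.9, and 47.5 CPM in the HFD mice. HFD 4 was the only HFD mouse within the control range. The log2FC of −1.3 carried an SE of 0.64 (adjusted P = 0.234). The HFD + RSV mice had 19.9 to 55.5 CPM, and the HFD + MET mice spanned 12.1 to 163.3 CPM, so that 1 group held both the lowest and the highest of the 16 levels. The white adipocyte sum was likewise lowest among HFD + MET mice in the mouse with the lowest Angptl4 (210.7 CPM) and highest in the mouse with the highest (4380.8 CPM). In the control mice, control 3 was highest in both. Control 2, with the lowest control sum (1042.6 CPM), had more Angptl4 than control 1 (sum 1321.6 CPM) and control 4 (sum 1755.0 CPM). The part of adipocytes was not tested.

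Cpt1b and Cpt2 encode the outer and inner carnitine palmitoyltransferases that carry long-chain fatty acids into mitochondria. Cpt1b (chr15:89416405-89425863) had means of 389.0 ± 69.1 CPM in the control group and 377.6 ± 52.2 CPM in the HFD group. Its log2FC of −0.04 had an interval of 2 SE on either side from −0.42 to 0.34. Cpt2 (chr4:107903981-107923610) had 58.9, 91.9, 124.6, and 71.8 CPM in the control mice and 61.5 to 77.6 CPM in the HFD mice, all 4 inside the control range (log2FC −0.39, SE 0.24, adjusted P = 0.33). In the HFD group, HFD 2 was highest for both, and the other 3 mice were within 344.6 to 362.4 CPM for Cpt1b and 61.5 to 63.2 CPM for Cpt2.

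Acadm and Hadha encode enzymes of mitochondrial beta-oxidation, the medium-chain acyl-CoA dehydrogenase and the alpha subunit of the trifunctional protein. Acadm (chr3:153922357-153944632) had 253.3, 441.8, 589.3, and 326.8 CPM in the control mice and 287.1, 366.5, 275.1, and 270.9 CPM in the HFD mice (log2FC −0.43, SE 0.31, adjusted P = 0.418). Hadha (chr5:30118304-30155162) had 330.1 to 578.9 CPM in the control mice and 299.5 to 485.3 CPM in the HFD mice (log2FC −0.27, SE 0.28, adjusted P = 0.578). For both genes the control spread covered most or all of the HFD values. The HFD + RSV mice formed a higher and a lower pair for both genes, replicates 1 and 4 with 349.3 and 431.5 CPM of Acadm and replicates 2 and 3 with 245.5 and 234.0 CPM. Markers of slow and oxidative fibres were summed at 3321.4 and 5127.5 CPM in replicates 1 and 4 and at 825.3 and 1020.6 CPM in replicates 2 and 3. In the control mice, the order of the 2 measures differed. Their marker sums were 1429.4, 7505.8, 1932.0, and 5632.2 CPM, whereas Acadm and Hadha were highest in control 3. The part of fibre makeup was not tested.

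Pdk4 (ENSMUSG00000019577, chr6:5483351-5496309) had 4775.2, 5911.6, 3752.1, and 4364.0 CPM in the control mice and 2791.6, 4950.2, 3114.2, and 3000.9 CPM in the HFD mice. Apart from HFD 2, every HFD mouse lay below every control mouse (log2FC −0.44, SE 0.26, adjusted P = 0.306). The HFD + MET mice had 1780.8, 3151.6, 3071.6, and 3507.6 CPM, all below the lowest control mouse, with a log2FC of −0.71 against the control group (SE 0.26, adjusted P = 0.382). Pdk4 was the only 1 of the 10 genes whose groups did not overlap in that comparison, beside 3.53% of all genes, and 9.5% of all genes had an unadjusted P under 0.05. The HFD + RSV mice spanned 2415.5 to 4694.0 CPM.

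Ucp3 (ENSMUSG00000032942, chr7:100472990-100486432) encodes an uncoupling protein of the inner mitochondrial membrane that rises with fatty acid supply. Its means were 302.3 ± 47.0 CPM in the control group, 275.0 ± 26.9 CPM in the HFD group, 290.7 ± 25.7 CPM in the HFD + RSV group, and 251.6 ± 56.7 CPM in the HFD + MET group. The log2FC for HFD against control was −0.14, with an interval of 2 SE on either side from −0.44 to 0.17. Unlike Ppara and Cd36, Ucp3 was highest in control 1 and low in HFD + MET 3 (218.2 CPM).

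RefSeq start regions of GRCm38.p6 were at hand for 8 of the 10 genes, Cpt1b and Angptl4 being the others, and were searched on both strands for the hexamer AGGTCA and for 2 hexamers in direct repeat with 1 base between them, with at most 2 mismatches in 12 positions. The search covered 250 bases before and 50 after the start of 1 region per gene, and other starts of a gene were not searched. The Ppara region was that of ENSMUST00000109422, and not of ENSMUST00000057979 or ENSMUST00000109423. The last bases of the Acadm and Cd36 regions were found in no GENCODE transcript of those genes. The Cd36 region (chr5:17835847-17836146) lay inside the gene's span of chr5:17781690-17888801. The direct repeat matched in Ucp3 and Cd36 only, with 2 mismatches each, beside 3.86% of 32851 start regions. The hexamer alone matched in 3 of the 8, Ucp3, Acadm, and Cd36, beside 16.3% of all start regions, and hexamers can lie within a direct repeat. The 250 bases before the start of both genes are shown because they alone held the repeat. Capitals mark the repeat, which lies at −51 to −39 from the start on the gene's strand in Ucp3 and at −63 to −51 on the opposite strand in Cd36.
Ucp3, chr7:100472741-100472990, plus strand: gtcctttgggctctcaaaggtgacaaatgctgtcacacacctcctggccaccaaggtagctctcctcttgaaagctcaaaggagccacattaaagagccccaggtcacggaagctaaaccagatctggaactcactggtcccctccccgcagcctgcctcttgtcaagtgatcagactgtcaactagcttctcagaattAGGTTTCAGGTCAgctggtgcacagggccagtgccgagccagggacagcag
Cd36, chr5:17835897-17836146, minus strand: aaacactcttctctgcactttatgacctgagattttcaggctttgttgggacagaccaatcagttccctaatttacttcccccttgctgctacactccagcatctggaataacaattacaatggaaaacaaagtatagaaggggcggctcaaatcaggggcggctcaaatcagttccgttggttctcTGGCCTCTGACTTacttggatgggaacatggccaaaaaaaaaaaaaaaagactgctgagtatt
A match of letters is a description of the sequence and not evidence of binding.

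For HFD + RSV against HFD, none of the 10 genes passed even an unadjusted P under 0.05, beside 4.72% of all genes, and 3 had a log2FC below 0, beside 48.9% of all genes. The log2FC ranged from −0.19 for Ppard to 0.21 for Angptl4 and Cd36, with a median of 0.05 for the 10 genes and 0.005 for all genes. The interval of 2 SE on either side was −1.01 to 0.92 for Ppara, −0.32 to 0.75 for Cd36, and −0.34 to 0.42 for Cpt1b, so the interval was widest for the more variable genes.

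For HFD + MET against HFD, where 0.013% of all genes were called, none of the 10 genes had an unadjusted P under 0.05 either, beside 8.02% of all genes. The log2FC was below 0 for 4 of the 10, beside 46.9% of all genes. Angptl4 (log2FC 1.07, SE 0.64), Ppara (0.73, SE 0.48), and Cd36 (0.56, SE 0.27) had the largest values, and their adjusted P was 0.664, 0.684, and 0.626. These values turned on 1 mouse, since without HFD + MET 3 the log2FC was −0.02 for Angptl4, 0.14 for Ppara, and 0.18 for Cd36. Pdk4 had a log2FC of −0.27 (SE 0.26). Between the 2 treatments, HFD + MET against HFD + RSV, none of the 10 genes passed an unadjusted P under 0.05, beside 4.68% of all genes, and 4 had a log2FC below 0, beside 49.3%. Against the control group, the log2FC was below 0 for 9 of the 10 genes in HFD + RSV, beside 51.2% of all genes, and for 9 in HFD + MET, beside 48.2%. In HFD + RSV against control, 0.00651% of all genes were called, and 1 of the 10 genes, Ppara, had an unadjusted P under 0.05, beside 15.8% of all genes. The looser criteria of the study, an unadjusted P under 0.05 with an absolute log2FC above 1, took 1 of the 10 genes, Ppara, both in HFD against control, beside 4.94% of all genes, and in HFD + RSV against control, beside 2.72%.

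**Figure D4:**
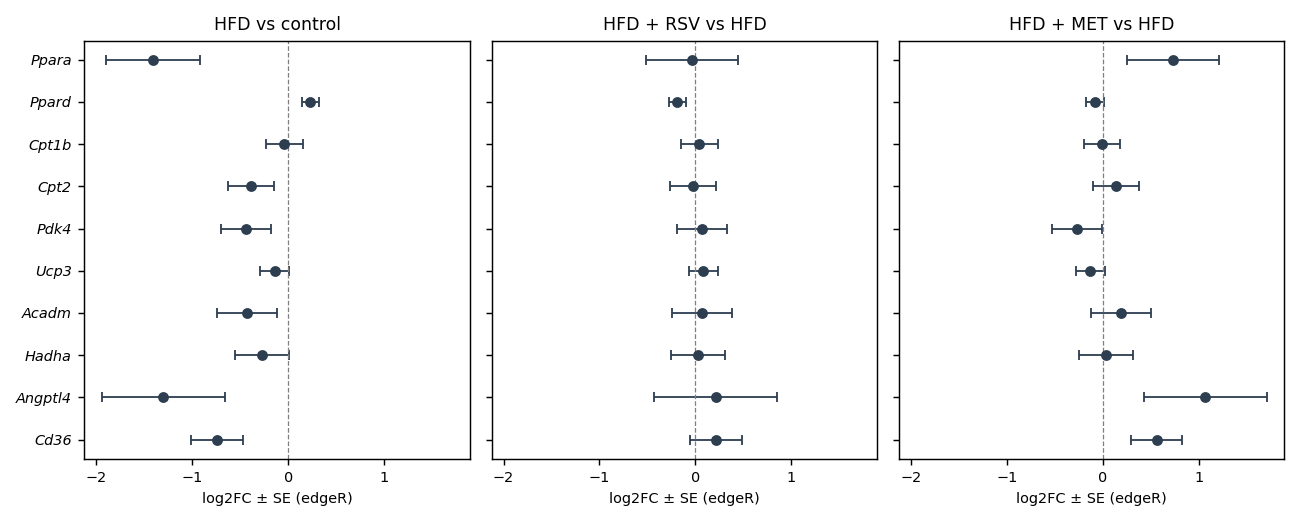
The log2FC (x axis) of the 10 genes from edgeR in 3 comparisons, with bars for ± SE. In HFD against control, 9 of 10 genes lie below 0, with Ppara at −1.41 and Angptl4 at −1.3 farthest, and no gene passed an adjusted P under 0.05 in any panel.

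Other genes of the pathway were read from 7 lists with 78 genes, of which 77 passed the filter. For HFD against control, 1 was upregulated and 2 were downregulated at an adjusted P under 0.05, beside 1.32% and 1.11% of all genes, and 6 and 25 had an unadjusted P under 0.05 in these directions, beside 11.7% and 12.5% of all genes. The log2FC was below 0 in 60 of 77, with a median of −0.37. Rxra, the retinoid X receptor that pairs with PPARs, was upregulated from 200.3 ± 24.5 CPM to 259.5 ± 3.54 CPM (log2FC 0.37, adjusted P = 0.0483). Acaca, the acetyl-CoA carboxylase of fatty acid synthesis, was downregulated from 296.5 ± 175.3 CPM to 28.5 ± 4.06 CPM (log2FC −3.38, adjusted P = 0.0156). Pdp2, a phosphatase that reactivates pyruvate dehydrogenase and so opposes Pdk4, was downregulated from 46.8 ± 16.5 CPM to 17.6 ± 3.62 CPM (log2FC −1.41, adjusted P = 0.0362). Acaca and Pdp2 held without control 3 and HFD + MET 3 together, and Rxra did not (adjusted P = 0.0659). Pdp2 also lost its call without control 2, without control 3, or without any single HFD mouse, and Acaca lost it without control 2, HFD 1, or HFD 2. Rxra was the least stable, since it lost its call in 13 of 16 fits with 1 mouse left out (adjusted P up to 0.144), without the filter (0.0612), in the 8 mice compared (0.0566), and with limma on FPKM (log2FC 0.23, adjusted P = 0.152 and 0.149).

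In HFD against control, 52.4% of all genes had a log2FC below 0, with a median of −0.018. At an unadjusted P under 0.05, 12.5% of all genes were lower and 11.7% were higher. By role, all 11 genes tested of lipid droplets and other PPAR targets had a log2FC below 0 in HFD against control (median −0.84), and 7 of them had an unadjusted P under 0.05. The lipases Pnpla2 (log2FC −1.42, adjusted P = 0.0676) and Lipe (−1.65, adjusted P = 0.149) of triglyceride breakdown, picked after their values were seen, are examples. The 13 genes of thioesterases and peroxisomal oxidation had 12 below 0 (median −0.41) and 6 at an unadjusted P under 0.05. Of 15 further genes of mitochondrial beta-oxidation, 14 lay below 0 (median −0.37), and 2, Eci2 (log2FC −0.37, adjusted P = 0.0865) and Echs1 (−0.74, adjusted P = 0.119), had an unadjusted P under 0.05. This 2 of 15 was near the 12.5% of all genes that were lower at that level. Uptake and activation had 5 lower and 2 higher genes of 11 at that level (median −0.53), and the carnitine shuttle and malonyl-CoA list had 3 lower genes of 7 (median −0.48). Receptors, partners, and coregulators had a median of −0.03, with 3 higher genes and 1 lower gene of 11 at that level. The 9 genes of the pyruvate dehydrogenase switch had a median of −0.18, with 1 higher and 1 lower, near the shares of all genes. In the other 5 comparisons, no gene of these lists was called, beside at most 0.013% of all genes. At an unadjusted P under 0.05, there were 0 of 77 in HFD + RSV against HFD, beside 4.72% of all genes, 7 higher in HFD + MET against HFD, beside 8.02%, and 1 higher in HFD + MET against HFD + RSV, beside 4.68%. Against the control group there were 3 higher and 17 lower in HFD + RSV, beside 15.8%, and 4 higher and 7 lower in HFD + MET, beside 9.5%. Several list genes, such as Acaca, Lpl, Pnpla2, and Lipe, are also abundant in adipocytes. The adipocyte marker sums were lower in the HFD group, as given above. Without the mice highest in white adipocyte markers, control 3 and HFD + MET 3, 6 list genes were called in HFD against control, beside 555 of all 15499 genes. Acaca, Lpl, and Pnpla2 were among them. The white marker sum was still 1042.6 to 1755.0 CPM in the control mice left and 207.8 to 1033.9 CPM in the HFD mice. The fit therefore did not remove the difference in these markers. Lipe was not called in that fit. The part of adipocytes in the values of the list genes was not tested.

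Over the 16 mice, the 10 genes split into sets by Pearson's r of log2 CPM. These values describe libraries that share groups and any difference in tissue makeup, and carry no test. Cpt2 and Acadm were closest (r = 0.98, Spearman's rho = 0.97), followed by Acadm and Hadha (r = 0.95, rho = 0.96) and by Ppara and Cd36 (r = 0.93, rho = 0.89). After the group means were removed, these 3 values were 0.98, 0.95, and 0.93, so they were as high within groups. Without the 2 mice farthest from the median of the first gene, they were 0.97, 0.97, and 0.88. Ppara had r = 0.53 with Angptl4, which was 0.05 without the 2 mice farthest from the Ppara median. Ucp3 was closest to Pdk4 (r = 0.7), and Ppard had r from −0.23 to −0.03 with the other 9 genes, which became 0.02 to 0.30 after the group means were removed.

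**Figure D5:**
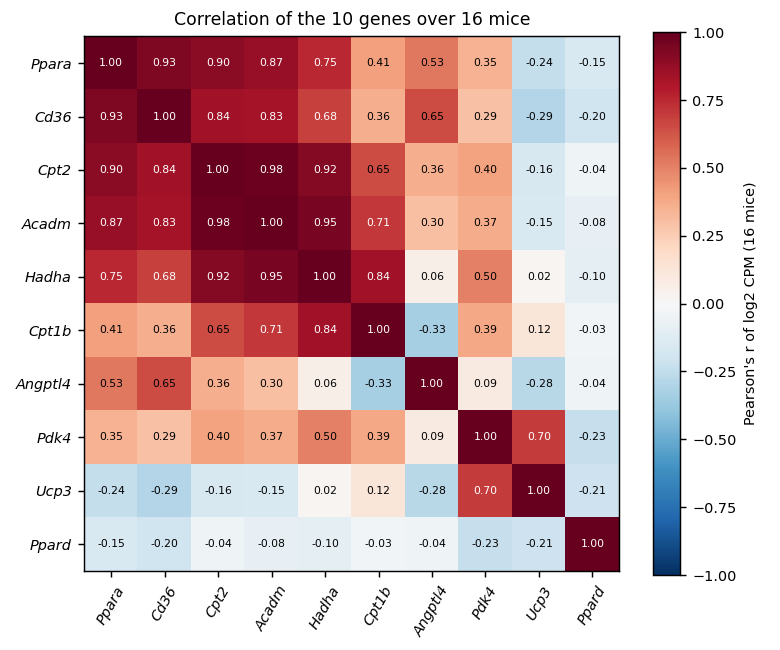
Pearson's r of log2 CPM between each pair of the 10 genes over 16 mice (both axes are genes, color is r). Ppara, Cd36, Cpt2, Acadm, and Hadha form a block with r of 0.68 to 0.98, and Ppard has values of −0.23 to −0.03, whose sign turned once group means were removed.

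Among all other genes, the gene most like Ppara, Cpt2, Acadm, or Cd36 was on a pathway list, and the gene most like each other member was not. Acadm was most like Acaa2 (r = 0.996, rho = 0.988 over 16 mice), the thiolase of the last step of beta-oxidation, and Cpt2 was most like Acadvl (r = 0.98) and Slc25a20 (r = 0.98), the very-long-chain dehydrogenase and the carnitine carrier. Ppara was most like Echs1 (r = 0.949), followed by Gm15801 (r = 0.947) and by Hadh, another beta-oxidation gene (r = 0.928). Cd36 was most like Lpl (r = 0.95), the lipoprotein lipase that Angptl4 inhibits, followed by Gm15801 (r = 0.944) and Nln (r = 0.935). Cpt1b was most like Cyc1 (r = 0.954), Uqcrfs1, and Ndufa9 of the respiratory chain. Pdk4 was most like Mafk (r = 0.883), Ucp3 like Gm15446 (r = 0.916), Hadha like Gm13910 (r = 0.974), Angptl4 like Os9 (r = 0.966), and Ppard like Inpp4a (r = 0.814).

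Fibre type markers also differed between mice. The summed level of 8 slow and oxidative fibre markers, with Myh2 highest, was 1429.4, 7505.8, 1932.0, and 5632.2 CPM in the control mice and 840.5 to 1603.2 CPM in the HFD mice, and 7 of the 8 had an unadjusted P under 0.05 with none called. The sum of 6 fast glycolytic fibre markers was 60532.9 to 106575.8 CPM in the control mice and 104480.8 to 114174.7 CPM in the HFD mice, and control 1, the control mouse with Ppara and Cd36 in the HFD range, had the highest of the control values. The part of fibre makeup in the values of the 10 genes was not tested.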

How the data were processed

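Per the labels and the study's methods, rRNA-depleted skeletal muscle RNA was sequenced as paired ends, reads were cleaned with fastp and aligned to GRCm38 with HISAT2, and transcripts were quantified with StringTie. The authors deposited estimated counts and FPKM per transcript for mRNA and lncRNA. The deposited FPKM divide by the total of both, within 0.0098%, so the lncRNA data entered only as an alternative library size. No value column was left unmapped, and 4 split lines were joined. Expected counts were summed per gene name and rounded. Genes passing filterByExpr (count minimum 10, total 15), 15364 in all, were fitted over 16 mice with edgeR 4.0.16 (TMM, quasi-likelihood test) under R 4.3.3, and P-values were adjusted by Benjamini-Hochberg over all genes. Transcripts, 44573 in all, were fitted likewise. CPM use TMM-scaled library sizes, and mRNA counts per mouse ranged from 17625909 to 29761026. Mice were numbered in accession order, and the labels do not say whether they were processed separately, so P-values measure the spread between these libraries.

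Alternatives were DESeq2 1.42.0, RLE size factors, no filter, fits of fewer mice, limma 3.58.1 on log2(FPKM + 1) or log2(FPKM + 0.1), the study's criteria of unadjusted P under 0.05 and absolute log2FC above 1, and each mouse left out in turn. On simulated data for HFD against control, the fit over 15364 genes recovered 62% of genes changed by a log2FC of 1 and 88% of those changed by 2. The fit over 44573 transcripts recovered 4% and 45%. The changed genes were picked at random, and each gene was drawn independently, with no difference in tissue makeup between mice. These rates therefore do not give the power for the 10 genes. The 10 genes, the pathway and marker lists, and the tests were chosen with earlier results of these data known. Named genes were the 10 members, the Ppara transcripts that passed the filter, pathway genes called in any comparison, the highest marker of a list, and the 3 genes most like each member by Pearson's r of log2 CPM among genes with a mean log2 CPM above 1. Outside this rule, Pnpla2, Lipe, Eci2, and the most abundant Cd36 transcript were named after their values were seen, and the brown adipocyte markers were named to say what their sum holds. Of other lists, markers of endothelial cells (5 genes), macrophages (5), Schwann cells (4), and blood (5) gave no called gene in HFD against control.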

Additional observations from a re-analysis of the deposited data

Results flagged for a closer look

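In 68 groups of 4 mice (the 10 genes, the Ppara transcript shares, and marker sums), 12 held 1 mouse that stood apart. Its gap to the nearest of the others, divided by the group's range, was above Dixon's 95% critical value. Chance gives about 1 in 20 for independent, normally spread values. The 68 groups reuse the same mice over correlated genes and over shares of 1 gene, so 12 cannot be set against that rate.

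In the HFD group, HFD 2 stood above the other 3 mice for Cpt1b (455.1 CPM), Cpt2 (77.6 CPM), Pdk4 (4950.2 CPM), and Acadm (366.5 CPM). The slow and oxidative fibre sum was also highest in HFD 2 among HFD mice (1603.2 CPM), and its part was not tested.

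The brown adipocyte marker sum stood apart in control 3 (806.4 CPM), HFD + MET 3 (203.2 CPM), and HFD + RSV 3 (30.1 CPM). The share of ENSMUST00000057979 in the Ppara counts stood apart in HFD + MET 3 (58.8%) and HFD + RSV 3 (52.8%). The share of ENSMUST00000109423 stood apart in the same 2 mice, at 3.01% and 4.86%, and in control 1 (6.78%), where it rested on 20 counts.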

How the results depend on the processing

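Of the counts of called genes or transcripts under an alternative, 397 stayed within 1.5 times the main count and 32 did not. These counts were of the 10 genes, the Ppara transcripts, and the pathway genes. The main fits called none of them, apart from pathway genes in HFD against control. For most of the 397, nothing was therefore called in either fit, so the figure of 397 is not a measure of stability. Of the log2FC values, pooled with differences in Ppara transcript shares with 1 mouse left out, 1831 stayed the same and 81 reversed. Another 14 passed the threshold newly, and 27 no longer passed. For log2FC, the same means direction and side of the threshold, and for shares it means a shift smaller than the SD. Causes were not tested. No paired analysis was possible because numbers given in accession order pair no mice.

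For HFD against control, all genes called were 374 in the main fit, 1544 with DESeq2, 158 without the filter, 998 in the 8 mice compared, 1616 without the metformin group, and 181 or 197 with limma, and leaving out 1 mouse gave 16 (without control 2) to 1588 (without HFD + MET 3). Of the 10 genes, DESeq2 called 1, the fit without metformin 2, the study's criteria 1 (and 1 in HFD + RSV against control), and leaving out 1 mouse 0 to 2. Of the Ppara transcripts, DESeq2 called 3, the 8 mice 2, and leaving out 1 mouse 0 to 1, and DESeq2 called 1 each in HFD + MET against HFD, HFD + RSV against control, and HFD + MET against control. Over all transcripts, DESeq2 called 801 higher and 639 lower in HFD against control. In the other 3 comparisons, in that order, it called 105 and 76, 214 and 191, and 155 and 131. The fit without HFD + MET 3, which called 1 Ppara transcript, called 153 higher and 108 lower in all. Of the pathway genes, 3 in the main fit, DESeq2 called 19, the 8 mice 8, the fit without metformin 18, and leaving out 1 mouse 0 to 18 (18 without HFD + MET 3). In HFD + RSV against control these were 7 (DESeq2), 4 (without metformin), and 0 to 7 (1 mouse left out), beside 376, 231, and 0 to 261 of all genes. In HFD + MET against control they were 2 (DESeq2) and 0 to 3 (1 mouse left out), beside 146 and 0 to 180 of all genes. Without control 3 and HFD + MET 3, an alternative chosen after seeing the data, 555 genes were called in HFD against control, none of the 10 genes (Ppara log2FC −1.08, Cd36 −0.61), and 6, 1, and 2 pathway genes in those 3 comparisons. Of all genes, 53 and 38 were called in the last 2 of these comparisons.

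Directions that reversed were near 0 in most cases. With limma on FPKM, where the median of all genes was −0.11 or −0.157 in HFD against control, Ppard became −0.06 in HFD against control, 0.07 in HFD + MET against HFD, and −0.09 or −0.1 in HFD + RSV against control, Cpt1b became 0.08 in HFD + MET against HFD and 0.01 in HFD + MET against HFD + RSV, and Hadha became 0.05 in the latter. Cpt1b in HFD + RSV against control became 0.0 with RLE and DESeq2, 0.01 without the filter, 0.02 with library sizes from both tables, and 0.01 without the 2 mice. Hadha in HFD + MET against HFD became −0.01 with both tables. Without the 2 mice, HFD + MET against HFD gave −0.03 for Cpt2, −0.06 for Acadm, −0.08 for Hadha, −0.02 for Angptl4, and 0.04 for ENSMUST00000109423, and HFD + MET against HFD + RSV gave −0.0 for Cpt2, −0.15 for Acadm, −0.24 for Angptl4, −0.04 for Cd36, and −5.19 for ENSMUST00000057979.

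Leaving out 1 mouse at a time also reversed directions, with these ranges of log2FC. For HFD against control it was −0.14 to 0.08 for Cpt1b. For HFD + RSV against HFD it was −0.34 to 0.16 for Ppara, −0.08 to 0.17 for Cpt1b, −0.13 to 0.07 for Cpt2, −0.08 to 0.29 for Pdk4, −0.12 to 0.19 for Acadm, −0.13 to 0.19 for Hadha, −0.11 to 0.52 for Angptl4, and −0.13 to 5.91 for ENSMUST00000057979. For HFD + MET against HFD it was −0.17 to 0.09 for Cpt1b, −0.03 to 0.27 for Cpt2, −0.07 to 0.37 for Acadm, −0.15 to 0.19 for Hadha, −0.02 to 1.42 for Angptl4, and −0.85 to 0.04 for ENSMUST00000109423. For HFD + RSV against control it was −0.01 to 0.09 for Ppard, −0.12 to 0.13 for Cpt1b, and −0.13 to 0.05 for Ucp3. For HFD + MET against control it was −0.21 to 0.06 for Cpt1b, −0.49 to 0.01 for Acadm, and −1.31 to 0.22 for Angptl4. For HFD + MET against HFD + RSV it was −0.21 to 0.07 for Cpt1b, −0.14 to 0.31 for Acadm, −0.19 to 0.17 for Hadha, −0.23 to 1.20 for Angptl4, −0.04 to 0.52 for Cd36, −5.19 to 7.74 for ENSMUST00000057979, and −0.31 to 0.74 for ENSMUST00000109423. Transcripts had a biological coefficient of variation of 0.582, against 0.261 for genes, which limits what 4 mice can show for them.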
